A study of Mus musculus with 6 samples.

Results

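The 60 genes described here encode proteins of mitosis and the spindle, and they were taken by symbol from a list of cyclins, kinases, condensins, kinetochore and checkpoint proteins, kinesins and cytokinesis factors. All 60 were among the 11162 genes listed in the deposited expression table. RNA had been measured in naive CD8 T cells from mouse spleen. Every library came from mice of the genotype Nur77-GFP (Tg(Nr4a1-EGFP)GY139Gsat), in which a bacterial artificial chromosome with the Nr4a1 locus drives green fluorescent protein, and from cells marked as OT-I, a transgenic T-cell receptor for a peptide of ovalbumin. Cells of both groups had been sorted as CD8-positive, CD44-low, CD62L-high and Qa2-high, and were then separated by the brightness of the reporter into GFP-hi (3 libraries) and GFP-lo (3 libraries). The labels give no age, no treatment and no statement that libraries came from separate animals, so the p-values below measure the spread between these samples, which may in part be technical.

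Mitosis begins when CDK1 bound to cyclin A and cyclin B phosphorylates proteins of the nucleus and cytoskeleton. Condensins then compact the chromosomes, kinetochores attach them to spindle microtubules, and the checkpoint holds back the anaphase-promoting complex until attachment is complete. Most of these transcripts are made in G2 and M phase and are repressed in resting cells, and naive T cells in the spleen are mostly quiescent.

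Values are RPKM (reads divided by gene length and by library size), a level per length. Most of the 60 transcripts were scarce in both groups, and most were more abundant in the GFP-hi libraries. For the 13 with a mean RPKM of at least 5, the median ratio of the GFP-hi to the GFP-lo mean was 1.16. The summed RPKM of the 60 genes was 301, 294 and 313 for libraries 1, 2 and 3 of GFP-hi, against 219, 212 and 226 for libraries 1, 2 and 3 of GFP-lo, the order used for all values below. The 3 GFP-hi sums lay above the 3 GFP-lo sums. Smc4 and Hmgb2 made up much of these sums, and over the 47 genes with a mean RPKM under 5 the sums were 75.3, 63.0 and 82.5 against 25.6, 28.6 and 35.7. In bulk samples such as these, fewer cells of a type and less RNA per cell cannot be told apart.

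The mean was higher in GFP-hi for 57 of the 60 genes, where 54.1% of all listed genes had a higher mean. For 46 genes the 3 GFP-hi values all lay above the 3 GFP-lo values, which held for 16% of all listed genes. The groups separated in the other direction for Pttg1 alone (8.95% of all listed genes), and they overlapped for 13 genes. The ratio of the group means was at least 2 for 37 genes, against 1.22% of all listed genes. Its median was 2.26 over the 60 genes and 1.01 over all listed genes, and it ran from 0.833 for Pttg1 to 24.7 for Ube2c. The plot of every gene in every library shows both groups by role.

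**Figure D1:**
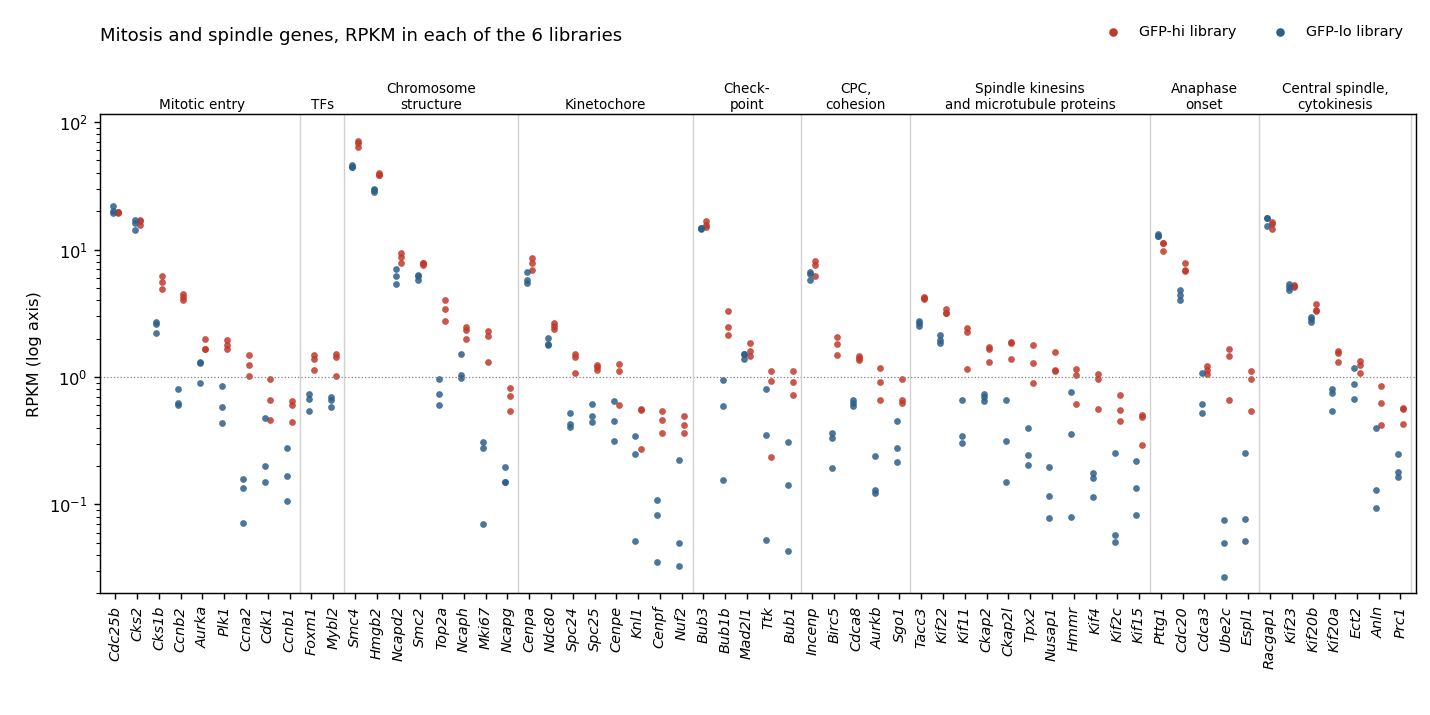
RPKM (log axis) of each of the 60 mitosis and spindle genes in the 3 GFP-hi (red) and 3 GFP-lo (blue) libraries, grouped by role and ordered by level; each point is 1 library and the dotted line marks an RPKM of 1. Red points lie above blue points without overlap for 46 genes, and below them for Pttg1.

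Tests used limma on log2(RPKM + 1), and a gene counted as different at an adjusted p under 0.05 over the 9351 genes whose mean RPKM reached 1. This scale understates the change of genes with a low RPKM. Of the 60 genes, 33 passed this filter, and 12 of them did so with a GFP-lo mean under 1, that is, through the GFP-hi libraries, which favours a call. These 12 were Birc5, Bub1b, Ccnb2, Cdca8, Ckap2, Ckap2l, Ect2, Kif11, Kif20a, Mki67, Plk1 and Top2a, and 11 of them (all but Ect2) were called. By limma 19 of the 33 were higher in GFP-hi, where 2.46% of all genes tested were, and 14 were not different. With no filter 32 of the 60 were higher, against 2.23% of all listed genes. None of the 33 was lower, where 1.49% of all genes tested were. At an unadjusted limma p under 0.05 there were 25, of which 1 (Pttg1) was lower. Of the 21 genes with both group means at or above 1, 8 were higher. The median log2 fold change, GFP-hi over GFP-lo, was 0.50 over the 33 and 0.02 over all genes tested. Without GFP-hi replicate 1 the count of 19 of 33 became 10 of 27, and without GFP-hi replicate 3 it became 11 of 27. Without GFP-lo replicate 2 it became 12 of 36. A gene under the filter in such a fit was not tested there.

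**Figure D2:**
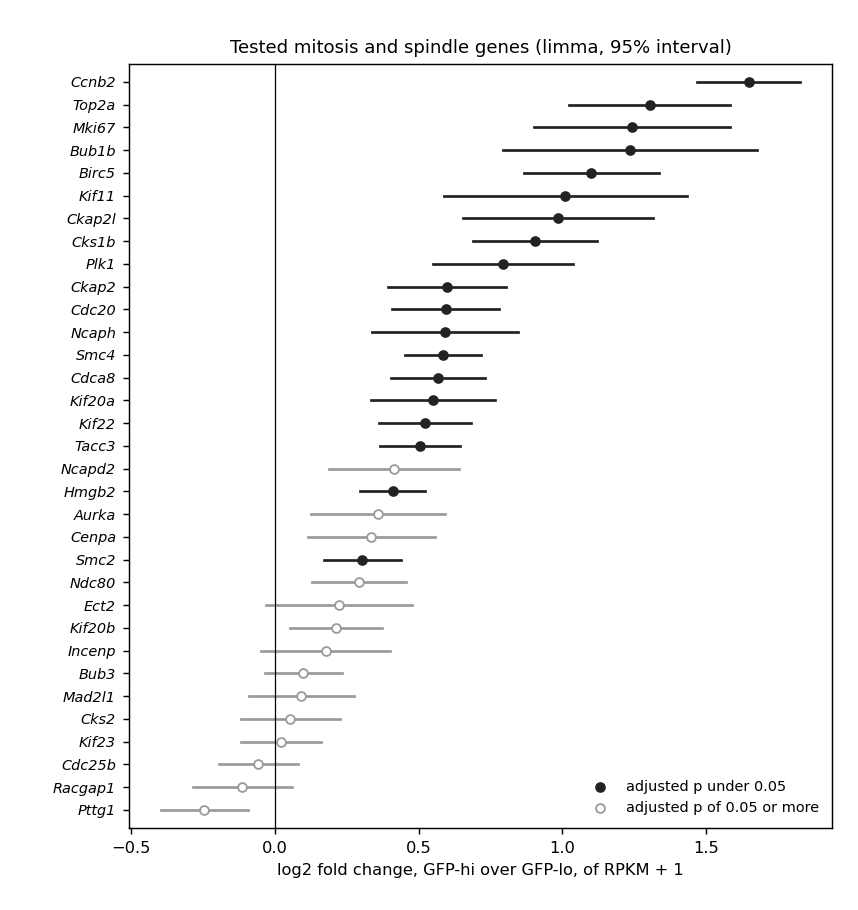
Log2 fold change (GFP-hi over GFP-lo, of RPKM + 1) of the 33 mitosis and spindle genes tested, with the 95% interval from limma; filled points have an adjusted p under 0.05. The 19 filled points lie between 0.30 (Smc2) and 1.65 (Ccnb2), and the lowest of all 33 is Pttg1 at -0.25.

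Many promoters of mitotic genes are known to carry a cell cycle homology region (CHR), which the MuvB core of the DREAM and B-MYB complexes binds, and CCAAT boxes, which NF-Y binds. RefSeq promoter windows of 300 bases (250 before and 50 from the transcript start on, build GRCm38.p6) were matched by symbol for 52 of the 60 genes, in 55 windows. Both strands were searched for the CHR core, TTTGAA or TTTAAA, and for CCAAT, and overlapping matches were counted. The CHR core was present in 44 of the 55 windows (80%), in 19.7% of the windows of all listed genes and in 27.6% of all windows. CCAAT was present in 41 of the 55 windows, in 38.0% of those of all listed genes and in 37.4% of all windows. Both were present in 37 windows (67.3%), in 7.68% of those of all listed genes and in 10.7% of all windows. A match is a run of letters and was not tested as a site.

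The windows below set Ccnb2, Cdc20 and Ube2c beside Racgap1 and Pttg1, and they were picked after the values were seen. Ccnb2, Cdc20 and Ube2c held both motifs and had GFP-hi values above all GFP-lo values, though Ube2c lay under the filter. Racgap1 held both motifs, and its groups overlapped with a lower mean in GFP-hi. Pttg1 held neither motif and also had a lower mean in GFP-hi. Of the 7 genes with neither motif, 5 separated with GFP-hi higher (16% of all listed genes). Capitals mark the CHR core and CCAAT matches on either strand, and the first 250 bases of each run precede the start. Ccnb2 lies at chr9:70421505-70421804 on the minus strand, Cdc20 at chr4:118437294-118437593 on the minus strand, Ube2c at chr2:164769679-164769978 on the plus strand, Racgap1 at chr15:99651607-99651906 on the minus strand and Pttg1 at chr11:43425932-43426231 on the minus strand. Each is written 5′ to 3′ in the direction of the gene.
Ccnb2: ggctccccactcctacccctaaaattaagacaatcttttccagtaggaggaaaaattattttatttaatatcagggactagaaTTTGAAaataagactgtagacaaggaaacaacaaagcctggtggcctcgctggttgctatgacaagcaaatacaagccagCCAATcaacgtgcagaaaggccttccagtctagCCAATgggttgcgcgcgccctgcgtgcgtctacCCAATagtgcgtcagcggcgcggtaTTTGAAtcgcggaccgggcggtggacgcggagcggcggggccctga
Cdc20: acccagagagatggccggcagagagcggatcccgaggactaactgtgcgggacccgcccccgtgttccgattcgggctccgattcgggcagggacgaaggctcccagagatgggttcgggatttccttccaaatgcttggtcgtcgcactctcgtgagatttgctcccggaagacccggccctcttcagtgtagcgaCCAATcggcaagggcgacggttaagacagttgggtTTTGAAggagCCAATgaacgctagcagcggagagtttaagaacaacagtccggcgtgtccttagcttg
Ube2c: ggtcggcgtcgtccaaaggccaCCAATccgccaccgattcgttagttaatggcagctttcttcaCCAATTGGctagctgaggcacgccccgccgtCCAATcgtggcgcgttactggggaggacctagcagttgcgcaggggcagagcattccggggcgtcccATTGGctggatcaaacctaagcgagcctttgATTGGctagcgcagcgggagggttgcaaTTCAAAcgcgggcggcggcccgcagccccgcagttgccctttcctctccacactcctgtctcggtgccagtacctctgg
Racgap1: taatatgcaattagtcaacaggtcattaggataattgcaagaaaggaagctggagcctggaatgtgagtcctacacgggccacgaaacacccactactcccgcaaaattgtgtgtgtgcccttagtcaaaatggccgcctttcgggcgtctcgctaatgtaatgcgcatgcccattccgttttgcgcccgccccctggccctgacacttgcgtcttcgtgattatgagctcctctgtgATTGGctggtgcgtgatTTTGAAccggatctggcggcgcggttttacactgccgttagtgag
Pttg1: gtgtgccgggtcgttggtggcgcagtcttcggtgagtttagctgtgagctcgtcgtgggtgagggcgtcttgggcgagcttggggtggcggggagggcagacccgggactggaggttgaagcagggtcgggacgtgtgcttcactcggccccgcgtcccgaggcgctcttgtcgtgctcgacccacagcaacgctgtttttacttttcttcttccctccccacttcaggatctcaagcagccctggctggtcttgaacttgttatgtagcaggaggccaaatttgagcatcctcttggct

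Ccnb2 held 3 forward CCAAT boxes whose first bases lay at -87, -54 and -21, and CHR cores at -167 and 5. Cdc20 held a CHR core at -18 between CCAAT boxes at -53 and -8. Ube2c held a reversed CHR core at -29 and 6 CCAAT matches, of which those at -186 and -183 overlap. Racgap1, whose groups overlapped in RPKM, held a reversed CCAAT box at -12 and a CHR core at 6. The Pttg1 window held no match.

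Over the 55 windows of the 52 genes, the 65 CHR matches had a median position of -18, and 45 lay within 50 bases of the start. Bub3, Ect2 and Prc1 have overlapping windows, and matches shared by these are counted in each. By gene, 41 of the 52 held a CHR core and 38 a CCAAT box. The 95 CCAAT matches had a median position of -68, and 90 lay upstream of the start. The ratios of genes with and without the motifs covered overlapping ranges. The median ratio of group means was 2.29 for the 34 genes with both motifs (0.919 to 24.7), 2.93 for the 7 with the CHR core only, 1.70 for the 4 with CCAAT only and 1.93 for the 7 with neither. The 7 with neither were Mad2l1, Mybl2, Ncaph, Nuf2, Nusap1, Pttg1 and Tacc3, and Nusap1 among them had a ratio of 9.81.

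**Figure D3:**
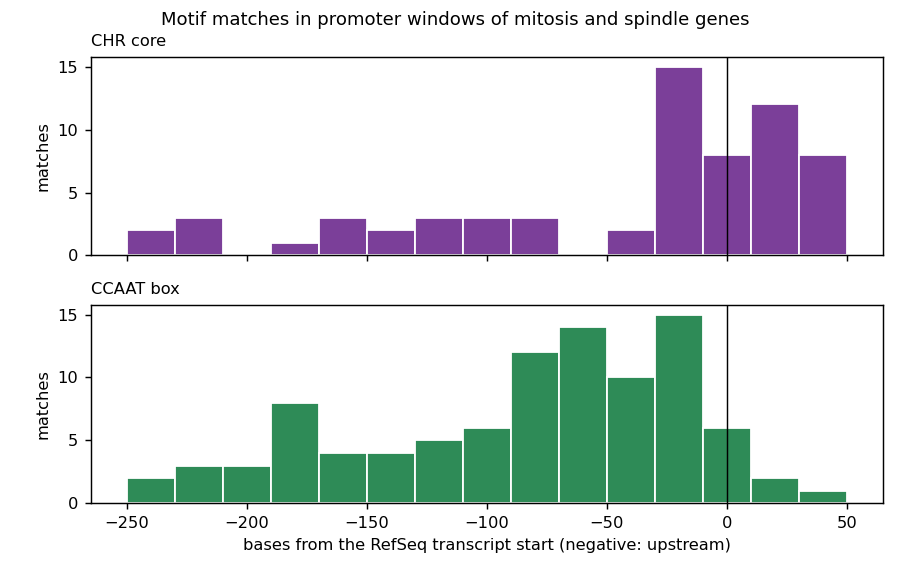
Number of CHR core matches (top) and CCAAT box matches (bottom) by distance in bases from the RefSeq transcript start (vertical line), in the 55 windows of the mitosis and spindle genes, in bins along the window. CHR matches are most frequent close to the start (median -18) and CCAAT matches lie mostly upstream of it (median -68).

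Among the 9 genes of mitotic entry, 6 were tested and 3 (Ccnb2, Cks1b and Plk1) were higher in GFP-hi, where 2.46% of all genes tested were. Ccnb2 encodes cyclin B2, a partner of CDK1. Its RPKM was 4.48, 4.0 and 4.26 against 0.600, 0.621 and 0.799. These values rested on 195, 208 and 192 reads against 33, 27 and 32 reads, recovered from the step that 1 read makes in its RPKM. All GFP-hi values lay far above all GFP-lo values. The log2 fold change was 1.65 (SE 0.08, limma adjusted p = 9.7e-05), the largest among the 33 genes tested. Cks1b, a small subunit that docks CDKs on their substrates, had an RPKM of 5.6, 4.90 and 6.24 against 2.22, 2.60 and 2.71. The groups did not overlap, and the log2 fold change was 0.90 (SE 0.09, limma adjusted p = 0.0027). Plk1, the polo kinase that promotes mitotic entry and spindle assembly, had an RPKM of 1.66, 1.78 and 1.95 against 0.438, 0.576 and 0.849. Its highest GFP-lo library was number 3, still below all GFP-hi libraries, and the log2 fold change was 0.79 (SE 0.11, limma adjusted p = 0.0072).

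The remaining cyclins and CDK1 itself stayed under the filter. Ccna2, cyclin A2, had an RPKM of 1.25, 1.02 and 1.49 against 0.071, 0.157 and 0.134. The groups were far apart, with a ratio of means of 10.4. In the fit with no filter on low values the log2 fold change was 1.00 (SE 0.10, limma adjusted p = 0.0034), and 12.5% of the exon bases of Ccna2 overlap Exosc9. Ccnb1, cyclin B1, had an RPKM of 0.603, 0.443 and 0.646 against 0.107, 0.166 and 0.275. The groups did not overlap, but with no filter the log2 fold change of 0.40 (SE 0.10) had a limma adjusted p of 0.079. Ccnb1 also has near-identical copies elsewhere in the genome, among them Ccnb1-ps, so its value is uncertain. Cdk1, the mitotic kinase, had an RPKM of 0.665, 0.458 and 0.956 against 0.150, 0.200 and 0.476. GFP-lo library 3 lay above GFP-hi library 2, and with no filter the log2 fold change was 0.41 (SE 0.14, limma adjusted p = 0.19).

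Of the rest of this role, Aurka, a centrosomal kinase, had means of 1.77 ± 0.19 and 1.17 ± 0.24 (SD, n = 3 libraries each) without overlap, a difference of 0.36 on the log2 scale (limma adjusted p = 0.10). Cks2 and Cdc25b were among the most abundant of the 60 genes and did not separate the groups. Cks2, the paralog of Cks1b, had an RPKM of 15.6, 16.7 and 17.1 against 17.2, 14.3 and 16.1, from 281 to 428 reads in each library. Its interval for the log2 fold change was -0.12 to 0.23, which does not reach the 0.90 of Cks1b, though the difference between these genes was not tested. Cks2 has near-identical copies too, which can share its reads. Cdc25b, a phosphatase that activates CDK1, had 19.3 to 19.6 against 19.2 to 21.8, with an interval of -0.20 to 0.08.

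Foxm1 and Mybl2 encode transcription factors that activate G2 and M phase genes. Foxm1 had an RPKM of 1.48, 1.14 and 1.39 against 0.735, 0.544 and 0.666. Mybl2, which encodes B-MYB, had an RPKM of 1.42, 1.01 and 1.52 against 0.579, 0.656 and 0.699. Gm3320, a copy with 99.7% identity over 20.3% of the Mybl2 transcript, can share its reads. Neither gene overlapped between groups, with ratios of 2.06 and 2.04, and both lay just under the filter. With no filter the log2 fold changes were 0.50 for Foxm1 (SE 0.09, limma adjusted p = 0.028) and 0.49 for Mybl2 (SE 0.10, limma adjusted p = 0.048). Of the 6 such fits that left out 1 library, the fit without GFP-hi replicate 2 alone kept these calls, and the limma adjusted p reached 0.13 for Foxm1 and 0.17 for Mybl2 (0.0019 to 0.13 and 0.0027 to 0.17 over 16 alternatives).

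All 8 genes of chromosome structure separated the groups with GFP-hi higher, which held for 16% of all listed genes. By limma 6 of the 7 tested were higher in GFP-hi, where 2.46% of all genes tested were. Smc4, the condensin ATPase with the highest level of the 60 genes, had an RPKM of 63.5, 69.0 and 70.9 against 44.2, 44.4 and 45.9. The difference between the means, 23.0 RPKM, was the largest among the 60 genes, and the log2 fold change was 0.59 (SE 0.06, limma adjusted p = 0.0022). Its partner Smc2 had an RPKM of 7.60, 7.90 and 7.83 against 6.25, 5.76 and 6.32. The groups did not overlap and the log2 fold change was 0.30 (SE 0.06, limma adjusted p = 0.029), but no fit without 1 library kept this call. Those 6 adjusted p-values ran from 0.058 without GFP-hi replicate 2 to 0.12 without GFP-lo replicate 2, and all 18 alternatives from 0.0047 to 0.15.

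The other condensin subunits were lower in level than Smc4. Ncaph, the kleisin of condensin I, had an RPKM of 2.36, 1.98 and 2.48 against 0.986, 1.04 and 1.51. The log2 fold change was 0.59 (SE 0.11, limma adjusted p = 0.026). With 1 library left out, the limma adjusted p of Ncaph was 0.093 (GFP-hi 1), 0.087 (GFP-hi 3), 0.086 (GFP-lo 1) or 0.10 (GFP-lo 2), within 0.0034 to 0.11 over 17 alternatives. Ncapd2 had means of 8.63 ± 0.82 and 6.24 ± 0.82 (SD, n = 3 libraries each), which did not overlap and gave a limma adjusted p of 0.059. Ncapg, under the filter, had 0.544 to 0.826 against 0.149 to 0.195, and 13.4% of its exon bases overlap Lcorl.

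Top2a, Mki67 and Hmgb2 act on chromatin outside condensin. Top2a, topoisomerase II alpha, which untangles sister chromatids, had an RPKM of 3.41, 2.75 and 4.01 against 0.739, 0.607 and 0.968. The groups were well apart, with a log2 fold change of 1.30 (SE 0.12, limma adjusted p = 0.0019). Mki67, the coat protein of mitotic chromosomes used as a marker of dividing cells, had an RPKM of 2.10, 1.31 and 2.31 against 0.070, 0.279 and 0.306. GFP-lo library 1 stood lowest, at a level of a few reads per kilobase, and the log2 fold change was 1.24 (SE 0.15, limma adjusted p = 0.0047). Hmgb2, a DNA-bending protein, had an RPKM of 40.0, 38.7 and 38.6 against 29.4, 28.5 and 29.7. Its spread within groups was small, and the log2 fold change was 0.41 (SE 0.05, limma adjusted p = 0.0047). Copies of Hmgb2 with up to 99.7% identity are annotated, so some of its reads may belong to them.

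None of the 8 kinetochore and centromere genes was called by limma. Of these genes 6 lay under the filter, and both of those tested had an unadjusted p under 0.05. Among the 8, 6 had GFP-hi values wholly above GFP-lo values, which held for 16% of all listed genes. The NDC80 complex couples kinetochores to microtubule ends. Its subunits Ndc80 (2.52 ± 0.14 against 1.88 ± 0.13), Nuf2 (0.425 ± 0.065 against 0.102 ± 0.106), Spc24 (1.34 ± 0.24 against 0.452 ± 0.058) and Spc25 (1.19 ± 0.06 against 0.517 ± 0.085; RPKM, SD, n = 3 libraries each) all separated the groups. Ndc80, the one subunit tested, differed by 0.29 on the log2 scale (limma adjusted p = 0.065), and with no filter Spc24 and Spc25 had limma adjusted p-values of 0.013 and 0.016. Both of those calls ended without GFP-hi replicate 1 or 3 and without GFP-lo replicate 1 or 2, at a limma adjusted p of up to 0.072 (Spc24) and 0.085 (Spc25). Cenpa, the centromeric histone, had 6.89 to 8.64 against 5.42 to 6.69 and a limma adjusted p of 0.10. Cenpf had 0.362 to 0.541 against 0.035 to 0.108. The values of Cenpe, a kinetochore kinesin, and of Knl1, a scaffold of the outer kinetochore, overlapped between groups.

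The spindle assembly checkpoint was uneven. Bub1b, which encodes BUBR1, an inhibitor of the anaphase-promoting complex, had an RPKM of 2.47, 2.15 and 3.29 against 0.155, 0.590 and 0.949. The GFP-lo libraries spread widely but stayed below GFP-hi, and the log2 fold change was 1.24 (SE 0.19, limma adjusted p = 0.014). Without GFP-lo replicate 2 the limma adjusted p was 0.055, within 0.0013 to 0.089 over 17 alternatives. Bub1, the kinase that marks unattached kinetochores, had 0.719 to 1.12 against 0.043 to 0.308 without overlap and lay under the filter. Bub3, which brings BUB1 and BUBR1 to kinetochores, was far more abundant, at 15.1 to 16.9 against 14.5 to 14.8. Its interval for the log2 fold change was -0.03 to 0.23. Mad2l1, the checkpoint protein MAD2, had 1.47 to 1.83 against 1.38 to 1.52, with an interval of -0.09 to 0.27. Ttk, the kinase MPS1, overlapped, since GFP-hi library 2 had 0.237 and GFP-lo library 3 had 0.800.

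The chromosomal passenger complex corrects faulty attachments and later acts at the midzone. Birc5, its subunit survivin, had an RPKM of 1.81, 1.48 and 2.06 against 0.193, 0.363 and 0.330. The groups were far apart, and the log2 fold change was 1.10 (SE 0.10, limma adjusted p = 0.0019). Cdca8, the subunit borealin, had an RPKM of 1.37, 1.40 and 1.46 against 0.595, 0.623 and 0.665. Values within each group were close together, and the log2 fold change was 0.57 (SE 0.07, limma adjusted p = 0.0055). The kinase subunit Aurkb, under the filter, had 0.658 to 1.19 against 0.123 to 0.240. The scaffold Incenp had 6.20 to 8.19 against 5.80 to 6.72, which overlap, and a limma adjusted p of 0.36. Sgo1, which protects centromeric cohesin, had 0.622 to 0.958 against 0.216 to 0.455.

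All 5 of the 11 spindle kinesins and microtubule proteins that were tested were higher in GFP-hi, and 10 of the 11 separated the groups. Of these 5, Kif11, Ckap2 and Ckap2l passed the filter through the GFP-hi libraries, and Kif22 and Tacc3 had both group means above 1. By limma 2.46% of all genes tested were higher, and 16% of all listed genes separated the groups with GFP-hi higher. Kif11, the motor that pushes spindle poles apart, had an RPKM of 2.42, 1.15 and 2.27 against 0.305, 0.345 and 0.664. GFP-hi library 2 was well below the other GFP-hi libraries and above all GFP-lo libraries, and the log2 fold change was 1.01 (SE 0.18, limma adjusted p = 0.023). The limma adjusted p of Kif11 was 0.093 both without GFP-lo replicate 1 and without GFP-lo replicate 2, within 0.00089 to 0.093 over 15 alternatives. Kif11 passed the filter in 4 of the 6 fits that left out 1 library. With no filter its call (limma adjusted p = 0.030) ended in 4 of 6 such fits, at a limma adjusted p of up to 0.12. Kif22, a chromosome-arm kinesin, had an RPKM of 3.18, 3.17 and 3.43 against 1.83, 1.95 and 2.12. The spread was narrow in both groups, and the log2 fold change was 0.52 (SE 0.07, limma adjusted p = 0.0072). Tacc3, which bridges microtubules of kinetochore fibres, had an RPKM of 4.10, 4.14 and 4.23 against 2.51, 2.74 and 2.65. It also separated the groups cleanly, with a log2 fold change of 0.50 (SE 0.06, limma adjusted p = 0.0048).

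Ckap2 and Ckap2l encode related spindle-associated proteins. Ckap2 had an RPKM of 1.73, 1.3 and 1.67 against 0.692, 0.644 and 0.735. The log2 fold change was 0.60 (SE 0.09, limma adjusted p = 0.011), and the limma adjusted p was 0.053 with GFP-hi library 1 left out and 0.060 with GFP-lo library 2 left out, within 0.00070 to 0.060 over 17 alternatives. Ckap2l had an RPKM of 1.84, 1.38 and 1.88 against 0.151, 0.314 and 0.658, from 164, 147 and 174 reads against 17, 28 and 54. The GFP-lo libraries differed among themselves by more than the GFP-hi libraries in proportion, and none reached the GFP-hi range. The log2 fold change of Ckap2l was 0.99 (SE 0.14, limma adjusted p = 0.010), and its limma adjusted p was 0.053 without GFP-lo replicate 2, within 0.00099 to 0.076 over 14 alternatives. Ckap2l passed the filter in 3 of the 6 fits that left out 1 library. With no filter its call (limma adjusted p = 0.015) ended in 3 of 6 such fits, at a limma adjusted p of up to 0.073.

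The 6 genes of this role under the filter were Nusap1, Tpx2, Kif4, Kif2c, Kif15 and Hmmr. Nusap1, which bundles microtubules, had 1.12 to 1.57 against 0.078 to 0.195, a ratio of means of 9.81. Tpx2, which activates Aurora A on the spindle, had 0.900 to 1.79 against 0.204 to 0.396. Kif4, a chromokinesin, had 0.556 to 1.06 against 0.114 to 0.175, and 15.1% of its exon bases overlap Pdzd11. The depolymerase Kif2c (ratio 4.81) and the motor Kif15 (ratio 2.93) also separated the groups. Hmmr overlapped, since GFP-hi library 2 had 0.609 and GFP-lo library 3 had 0.758.

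The genes of anaphase onset held both extremes of the ratio. Cdc20, the activator of the anaphase-promoting complex, had an RPKM of 6.88, 7.87 and 6.76 against 4.01, 4.42 and 4.80. The groups did not overlap, and the log2 fold change was 0.59 (SE 0.08, limma adjusted p = 0.0077). Ube2c, the ubiquitin-conjugating enzyme of that complex, had 0.658, 1.45 and 1.66 against 0.050, 0.076 and 0.027. Its ratio of means of 24.7 was the highest of all 11162 listed genes, but it divides by values of a few reads per kilobase or fewer. With no filter the limma adjusted p of Ube2c was 0.018, which ran from 0.0094 to 0.078 with 1 library left out and passed 0.05 without GFP-hi replicate 3 or any 1 GFP-lo replicate. A share of 22.8% of its exon bases overlaps Tnnc2. Espl1, separase, which cleaves cohesin, had 0.545 to 1.12 against 0.052 to 0.252. Cdca3 overlapped, at 1.06 to 1.22 against 0.517 to 1.07.

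Pttg1 encodes securin, the inhibitor of separase that the anaphase-promoting complex destroys. Its RPKM was 9.79, 11.2 and 11.4 against 12.9, 12.9 and 13.2. It was the only one of the 60 genes whose GFP-hi values all lay below its GFP-lo values. The log2 fold change of -0.25 (SE 0.07, interval -0.40 to -0.09) had a limma adjusted p of 0.087. With array quality weights the limma adjusted p was 0.043, and over 18 alternatives it ran from 0.043 to 0.24.

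Of the 7 genes of the central spindle and cytokinesis, 5 were tested and Kif20a alone was higher, where 2.46% of all genes tested were. Kif20a, a kinesin that carries the passenger complex to the midzone, had an RPKM of 1.60, 1.3 and 1.55 against 0.808, 0.536 and 0.753. The groups did not overlap, and the log2 fold change was 0.55 (SE 0.09, limma adjusted p = 0.019). Without GFP-lo replicate 2 the limma adjusted p of Kif20a was 0.074, within 0.0017 to 0.081 over 15 alternatives. Kif20a passed the filter in 4 of the 6 fits that left out 1 library. With no filter its call (limma adjusted p = 0.024) ended in 5 of 6 such fits, at a limma adjusted p of up to 0.11. A share of 29.3% of the exon bases of Kif20a overlaps Cdc23, and whether strand was used in counting is not given in the sources used here. Kif20b had 3.30 to 3.76 against 2.72 to 2.97 without overlap and a limma adjusted p of 0.14.

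The centralspindlin subunits Racgap1 and Kif23 were abundant, and their groups overlapped. Racgap1 had an RPKM of 16.3, 15.8 and 14.5 against 17.7, 17.7 and 15.3, with an interval for the log2 fold change of -0.29 to 0.06. Kif23 had 5.11, 5.17 and 5.31 against 5.11, 4.83 and 5.39, with an interval of -0.12 to 0.16. Neither interval reaches the 0.55 of Kif20a, though the difference from that gene was not tested. Ect2, the RhoA exchange factor that centralspindlin recruits, overlapped as well, at 1.07 to 1.34 against 0.666 to 1.18. Prc1, which bundles midzone microtubules, had 0.428 to 0.575 against 0.165 to 0.249 without overlap, and 11.1% of its exon bases overlap Rccd1. Anln, which organises the contractile ring, had 0.417 to 0.854 against 0.094 to 0.395.

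The size of the ratio went with the level of the gene. For the 27 genes with a mean RPKM under 1 over all libraries, the median ratio was 3.07, against 0.986 for all listed genes at that level, and 21 separated with GFP-hi higher (10% of listed genes at that level). For the 20 genes from 1 to under 5 it was 2.24 (all listed genes 1.01), and 18 separated in that direction (15%). For the 13 genes at 5 or more it was 1.16 (all listed genes 1.02), 7 separated in that direction (18.1%) and 1 in the other (9.53%). A ratio of at least 2 was reached by 25 genes of the lowest class (4.86% of listed genes at that level), 12 of the middle class (1.40%) and none of the highest (0.109%). By level, the 13 genes of the highest class were Smc4, Hmgb2, Cdc25b, Racgap1, Cks2, Bub3, Pttg1, Ncapd2, Smc2, Cenpa, Incenp, Cdc20 and Kif23.

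**Figure D4:**
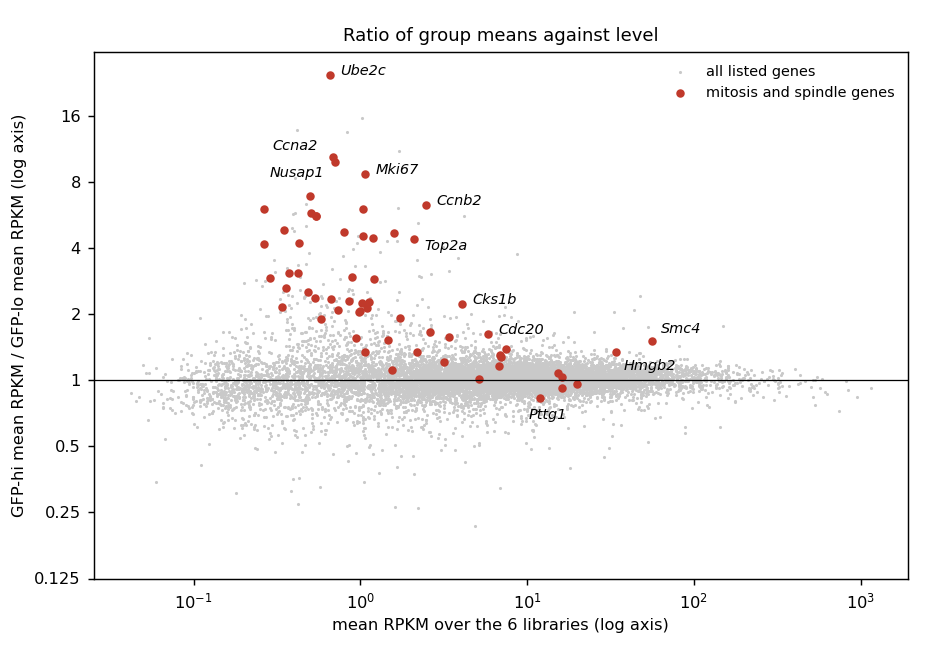
Ratio of the GFP-hi mean to the GFP-lo mean (log axis) against the mean RPKM over 6 libraries (log axis) for all listed genes (grey) and the mitosis and spindle genes (red). Red points spread upward at a mean RPKM under 5 and lie between 0.833 and 1.63 at 5 or more.

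Libraries of 1 group also differed from each other over many of the 60 genes. GFP-hi library 2 held the lowest GFP-hi value for 40 of the 60 genes (40.8% of all listed genes), and GFP-hi library 3 the highest for 40 (31.5%). GFP-lo library 1 held the lowest GFP-lo value for 34 (42.8% of all listed genes), and GFP-lo library 3 the highest for 44 (39.7%). The median RPKM of the 60 genes was 1.63, 1.3 and 1.66 against 0.512, 0.540 and 0.744, while the median over all listed genes stayed between 6.50 and 6.70. The order within groups was also that of 41 olfactory and vomeronasal receptor genes, with a median RPKM of 0.292, 0.037 and 0.419 against 0.038, 0.263 and 0.583. In the 4 libraries that held more of these reads 21 of 35 mitosis and spindle genes tested were higher by limma, where 2.73% of all genes tested were, and none was lower. The part of these reads in the result was not tested.

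**Figure D5:**
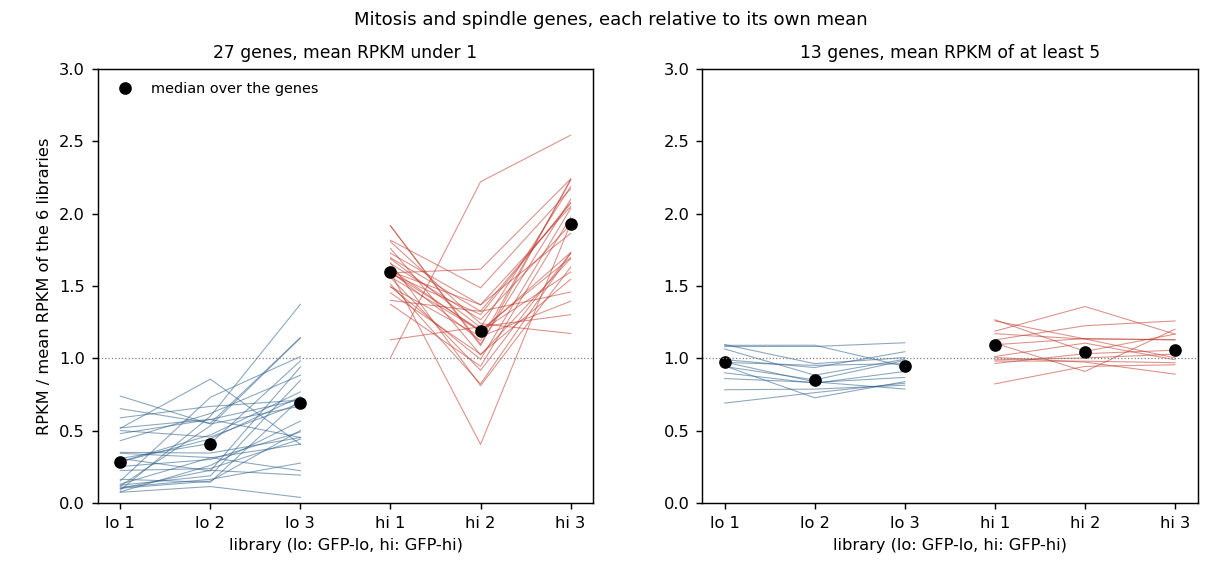
RPKM of each gene divided by its own mean over 6 libraries, in each library, for the 27 genes with a mean RPKM under 1 (left) and the 13 genes of at least 5 (right); thin lines join the values of 1 gene within a group and black points are medians over the genes. In the left panel GFP-hi library 2 and GFP-lo library 1 have the lowest median of their groups; the right panel stays near 1.

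Recovered depth ran from 26170000 to 35940000 reads, so that 0.1 RPKM on 1 kilobase stands for 2.62 to 3.59 reads, which include PCR copies and give counting error only. The heat-shock genes Hspa1a and Hspa1b stood out in both libraries numbered 2, at 1100 and 1904 RPKM in GFP-hi and 1234 and 2133 in GFP-lo, against at most 235 and 503 elsewhere. In the 4 libraries without them, 8 of 35 mitosis and spindle genes tested were higher by limma, where 0.501% of all genes tested were, and none was lower. The 11 genes whose call ended there were Bub1b, Cdc20, Cdca8, Ckap2, Ckap2l, Kif20a, Kif22, Ncaph, Plk1, Smc2 and Tacc3, with a limma adjusted p from 0.051 (Tacc3) to 0.15 (Smc2). Nr4a1, which encodes Nur77, overlapped between groups (37.0 to 90.9 RPKM in GFP-hi, 33.8 to 84.9 in GFP-lo), and so did the GFP transcript (214 to 262 against 191 to 216). Nr4a1 was highest in both libraries numbered 2 and lowest in both numbered 3. The numbers follow record order and the labels do not say which libraries share an animal or a day, so they were not used as pairs.

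Markers of other dividing or non-T cells were mostly low or not listed. The 5 CD8 T cell markers were listed with sums of 1428 to 1531 RPKM in GFP-hi and 1398 to 1454 in GFP-lo, and none was different. The thymocyte genes Rag2 and Ptcra were not listed, and the 4 listed of 6 summed to 19.7 to 21.9 against 19.8 to 22.8, nearly all from Cd1d1. Dntt among them had lower values in GFP-hi without overlap (1.07, 1.48 and 1.42 against 1.75, 2.34 and 2.02 RPKM, limma adjusted p = 0.083). The groups of Cd1d1, Rag1 and Arpp21 overlapped. Of 6 B cell markers 2 were listed (sums 12.5 to 14.2 against 10.9 to 11.3, nearly all from Cd79b), and Ebf1 and Pax5 were among those not listed. Of 8 erythroid markers 2 were listed, and Car2 was higher in GFP-hi (4.19 ± 0.37 against 2.13 ± 0.18, SD, n = 3 libraries each, limma adjusted p = 0.0036). Hba-a1, the other one listed, overlapped between groups (0.047, 0.118 and 1.94 against 0.484, 0.393 and 1.48 RPKM). The 3 listed of 7 effector markers summed to 27.3 to 31.4 against 36.7 to 40.5, mostly from Prf1 (means 22.6 against 34.1 RPKM). Prf1 was lower and Gzmb higher in GFP-hi, and Ifng overlapped between groups (means 3.58 against 3.51 RPKM). The call of Gzmb (limma adjusted p = 0.038) ended without any 1 GFP-hi library and without GFP-lo 2, at 0.081 to 0.12, within 0.010 to 0.19 over 17 alternatives. Of 7 myeloid markers 2 were listed (1.34 to 1.99 against 1.58 to 2.50), of 4 NK cell markers Eomes alone (5.49 to 8.14 against 5.86 to 7.68), and of 3 CD4 T cell markers none. The 5 naive T cell markers were listed, and Il7r among them was lower in GFP-hi. The part of other cells in the differences of the mitosis and spindle genes was not tested.

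Over 7 lists with 217 further genes of the pathway, 204 were listed and 169 tested, with a median log2 fold change of 0.09. By limma 15 of the 169 were higher and 1 was lower, where 2.46% and 1.49% of all genes tested were. Of the 15, 11 were DNA replication and S-phase genes, and each other list held at most 1. With 1 library left out, the 15 became 6 (GFP-hi 1), 7 (GFP-hi 3), 5 (GFP-lo 2) or 9 (GFP-lo 3). Of 17 kinases, phosphatases and regulators tested, Wee1, the kinase that restrains CDK1, was higher (2.88, 2.52 and 3.20 against 1.72, 1.52 and 1.60 RPKM, log2 fold change 0.56, SE 0.08, limma adjusted p = 0.011). Without GFP-lo replicate 2 the limma adjusted p of Wee1 was 0.059, within 0.00062 to 0.059 over 17 alternatives. Lats2, a Hippo pathway kinase, was lower (8.91, 7.89 and 8.60 against 12.5, 12.1 and 12.02 RPKM, log2 fold change -0.48, SE 0.06, limma adjusted p = 0.0055). Of 32 kinesins and spindle genes tested Depdc1b alone was higher (8.87, 8.24 and 7.34 against 5.98, 4.68 and 5.06 RPKM, log2 fold change 0.55, SE 0.09, limma adjusted p = 0.019). That call ended at a limma adjusted p of 0.073 when GFP-hi 1, GFP-lo 2 or GFP-lo 3 was left out, within 0.0051 to 0.13 over 18 alternatives.

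None of 21 further kinetochore genes and none of 16 genes of the anaphase-promoting complex was different by limma. An unadjusted limma p under 0.05 was reached by 4 and 2 of them, against 1885 of all 9351 genes tested. Of 15 cohesin and condensin genes tested Cdca5, sororin, which locks cohesin on sister chromatids, was higher (1.90, 1.84 and 2.06 against 0.975, 0.608 and 0.50 RPKM, log2 fold change 0.80, SE 0.11, limma adjusted p = 0.0080). Of 16 genes of the DREAM, E2F and pocket protein list E2f1, an activator of S-phase genes, was higher (2.73, 2.09 and 2.93 against 1.52, 1.32 and 1.39 RPKM, log2 fold change 0.56, SE 0.10, limma adjusted p = 0.023). The call of E2f1 was kept in 1 of 6 fits without 1 library (GFP-hi 2 left out), and the limma adjusted p ran up to 0.093, within 0.00077 to 0.093 over 17 alternatives.

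DNA replication and S-phase genes held most of the other calls. Of 52 tested, 11 were higher in GFP-hi, where 2.46% of all genes tested were, and none was lower. Their median log2 fold change was 0.22. Rrm2, a subunit of ribonucleotide reductase, had an RPKM of 6.27, 5.16 and 6.54 against 1.61, 1.90 and 1.49 (log2 fold change 1.39, SE 0.10, limma adjusted p = 0.00079). Pclaf, a partner of PCNA, had 2.03, 1.25 and 2.46 against 0.073, 0.159 and 0.136 (1.35, SE 0.15, limma adjusted p = 0.0037). Both separated the groups widely. Uhrf1, which maintains DNA methylation, had 11.3, 7.49 and 11.54 against 5.03, 4.66 and 4.43 (0.94, SE 0.14, limma adjusted p = 0.012), and without GFP-lo replicate 2 its limma adjusted p was 0.056, the highest over 18 alternatives. Cdc45, part of the replicative helicase, had 3.13, 2.53 and 3.31 against 1.40, 1.26 and 1.42 (0.76, SE 0.09, limma adjusted p = 0.0047). GFP-hi library 2 was the lowest GFP-hi library for each of these 4 genes, as it was for 40 of the 60 mitosis and spindle genes.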

How the data were processed

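RNA from 6 sorted samples (3 GFP-hi, 3 GFP-lo) was turned into cDNA with the SMART-seq v4 kit and into libraries with the Nextera XT kit, per the labels' protocols. STAR and mm10 are named in the submitters' processing notes, while versions, counter, annotation and listing rule are not given in the sources used here. The values deposited by the authors are RPKM, per the file headers, in 1 column for each sample. Tests used limma 3.58.1 in R 4.3.3 on log2(RPKM + 1), with a mean RPKM of at least 1 and a trend in eBayes. The p-values were two-sided and adjusted by Benjamini-Hochberg across all genes tested. The fit was checked on simulated data in which only genes well above the filter were changed. That check does not cover genes near the filter or changes smaller than the simulated one. Depth was recovered from RPKM steps of 800 genes with 1 GENCODE M21 transcript. Replicate numbers follow record order and were not used to pair samples. Copies were searched with BLAST+ 2.17.0 (at least 95% identity over at least 20% of a transcript), exon overlaps with GENCODE M21, and figures drawn with matplotlib 3.10.9. Genes and lists were chosen with earlier results of these data known. Full values are given for genes with an adjusted p under 0.05, for Mki67, Top2a, Ccnb1, Ccna2, Cdk1, Birc5, Foxm1 and Mybl2, and for up to 4 such genes of each further list. The 18 alternatives changed pseudocount, filter, scaling, variance model and samples.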

Additional observations from a re-analysis of the deposited data

How the results depend on the processing

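Of the 19 mitosis and spindle genes higher in GFP-hi, 9 were called in each of 6 fits that left out 1 library, 3 (Mki67, Birc5 and Cdca8) were called wherever they passed the filter, and 7 lost the call in some. The count ran from 10 to 18 in those fits, in which 27 to 36 mitosis and spindle genes were tested. It was 32 of 60 with no filter, 4 of 13 with a mean RPKM of at least 5, and 8 of 35 in the 4 libraries with lower Hspa1a and Hspa1b, a choice made after seeing the data. The count lower was 0, and 1 (Pttg1) with array quality weights. The median log2 fold change was 0.18 at a mean RPKM of at least 5 and ran from 0.36 to 0.51 without 1 library. Over all genes, 230 higher and 139 lower became 119 and 83 at a mean RPKM of at least 5, 783 and 499 with array quality weights, and 47 and 43 in those 4 libraries, and ran from 73 to 173 and from 60 to 125 without 1 library. The 15 further pathway genes became 5, 52 and 7 under the same 3 settings and ran from 5 to 20 without 1 library, and the 1 lower became 2 with array quality weights. The log2 fold change of Cks2 turned to -0.016 and that of Kif23 to -0.013 without GFP-lo replicate 2 (ranges without 1 library -0.016 to 0.11 and -0.013 to 0.053), and to -0.026 and -0.010 in the 4 libraries. A filter or subset leaves fewer genes or samples to test, and the cause of the other shifts was not tested. No paired analysis was possible because the labels carry no replicate numbers and record order was not taken as a pairing. At these depths, values under 0.1 RPKM rest on few reads, so ratios of the scarcest genes are imprecise.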

Other observations

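Outside the rule for named genes, and chosen after their values were seen, 3 subunits of the MCM helicase were among the DNA replication genes higher in GFP-hi: Mcm5 (log2 fold change 0.54, SE 0.08, limma adjusted p = 0.0090), Mcm6 (0.41, SE 0.06, limma adjusted p = 0.013) and Mcm7 (0.32, SE 0.06, limma adjusted p = 0.029). The subunits Mcm2, Mcm3 and Mcm4 were tested and not different (limma adjusted p = 0.17, 0.0695 and 0.22). Mcm6 had 48.6, 42.8 and 48.6 RPKM in GFP-hi and 35.9, 34.2 and 34.3 in GFP-lo, so its change lay at a high level. The call of Mcm5 was kept in each of 6 fits that left out 1 library, while those of Mcm6 and Mcm7 ended in 4 of them (GFP-hi 1, GFP-hi 3, GFP-lo 2 or GFP-lo 3 left out), at a limma adjusted p of up to 0.067 and 0.11. Among genes under the filter, Cdc6, which loads the MCM helicase, had 0.796, 0.603 and 0.917 RPKM against 0.052, 0.033 and 0.083, and Nek2, a centrosomal kinase, had 0.709, 0.572 and 0.878 against 0.046, 0.135 and 0.077. Neither gene overlapped between groups.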
